A study of Mus musculus with 7 samples.

Results

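Genes of glycolysis and of the pentose phosphate pathway were followed in primary ovarian granulosa cells, which line the ovarian follicle around the oocyte. The 34 genes were chosen by name: 26 genes of glucose uptake, glycolysis, lactate handling and pyruvate dehydrogenase control, 7 genes of the pentose phosphate pathway, and Idh1, whose cytosolic enzyme also makes NADPH. All 34 were found once each among the 55228 rows of the deposited table, and all 34 passed the filter on low counts. The 3 Fhl2 KO libraries came from granulosa cells of mice labelled as Fhl2 knockout, and the 4 WT libraries from granulosa cells of wild-type mice. Both groups were C57BL/6J and untreated. FHL2 is built of LIM domains and acts as a cofactor of transcription factors. The study title is about follicular development, fertility and EGFR and YAP signalling. The labels give neither the structure of the knockout allele, nor the age of the mice, nor which animals the libraries stem from. P-values therefore measure only how far these libraries spread, which may be technical.

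Glycolysis turns glucose into pyruvate and yields ATP and NADH, and lactate dehydrogenase turns pyruvate into lactate. The pentose phosphate pathway leaves glycolysis at glucose 6-phosphate. Its oxidative branch makes NADPH, and its non-oxidative branch makes ribose phosphate and returns carbon to glycolysis. In the follicle, granulosa cells are known to use glucose and to pass pyruvate and lactate to the oocyte, and in steroid-making cells NADPH feeds the cytochrome P450 enzymes.

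The libraries held 38855596 to 50514556 counts. Levels are given as CPM (counts of a library scaled to the same total), adjusted by TMM, edgeR's factor for library composition. Fhl2 itself had 47.9, 66.8 and 60.4 CPM in KO libraries 1 to 3, against 101, 114, 106 and 109.9 CPM in WT libraries 1 to 4, a fall of 0.88 on the log2 scale (edgeR adjusted p = 3.29e-05) with reads left in each KO library. The 11 granulosa cell markers summed to 5550 to 6650 CPM in KO and 6290 to 6960 CPM in WT (of 10 tested, 2 higher and 5 lower). Among them the aromatase gene Cyp19a1 was near the floor, at 0.233 ± 0.118 CPM in KO (SD, n = 3) and at 0 counts in all 4 WT libraries, where 3 counts would be 0.0594 to 0.0769 CPM. Markers of some other cells moved with genotype. The 7 stroma markers summed to 118 to 164 CPM in KO and 365 to 422 CPM in WT (5 of 7 lower), and the 7 smooth muscle and pericyte markers to 464 to 539 CPM in KO and 878 to 973 CPM in WT (5 of 6 tested lower, with Rgs5 at 0 counts throughout). The 8 surface epithelium markers summed to 139 to 182 CPM in KO and 110 to 126 CPM in WT (5 higher), and 5 lung epithelium markers to 1.08 to 22.8 CPM in KO and 0.128 to 0.418 CPM in WT (2 of 3 tested higher). The 5 luteal markers summed to 28.1 to 30.6 CPM in KO and 18.3 to 21.5 CPM in WT, and the 6 theca markers to 31.2 to 37.4 CPM in KO and 44.8 to 49.1 CPM in WT. Of 4 tested luteal markers, 3 were higher. Of 3 tested theca markers, Hsd3b6 was higher (0.782 ± 0.441 CPM in KO and 0.129 ± 0.0856 CPM in WT) and Ptch1 lower (32.3 ± 2.72 CPM in KO and 47.0 ± 2.00 CPM in WT, SD, n = 3 KO and 4 WT), and Ptch1 made up most of the theca sum. The endothelial, leukocyte and oocyte sums overlapped between groups, at 1.65 to 2.56, 20.9 to 24.9 and 5.14 to 11.4 CPM in KO and 1.69 to 2.57, 21.6 to 23.5 and 3.43 to 9.3 CPM in WT. Red cell markers stayed at or under 0.682 CPM in KO and 0.342 CPM in WT. The part of these cells in the results below was not tested, and in bulk libraries fewer cells of a type and less RNA per cell cannot be told apart.

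In KO libraries the 3 member genes of the oxidative, NADPH-making branch of the pentose phosphate pathway rose. Of 26 genes of glycolysis, 17 did not pass the test, close to the share over all genes tested (11210 of 15798 not called). That count is therefore not read as a result about glycolysis. The contrast between the branches as wholes was not tested, and it varied with the libraries used. The 3 members of the oxidative branch (G6pdx, Pgls and Pgd) rose by 0.37 to 0.43 on the log2 scale. Once length and GC trends were corrected for, as described below, 2 of the 3 kept their calls. Taldo1, the transaldolase gene of the non-oxidative branch, rose by 0.51. H6pd, a further dehydrogenase gene of glucose 6-phosphate outside the members, did not pass (-0.21, edgeR adjusted p = 0.128, corrected -0.06). Of the 26 glycolysis genes, 6 rose (Slc2a3, Gpi1, Pgk1, Ldhb, Slc16a3 and Pdk4), 3 fell (Hk2, Pfkfb3 and Slc16a1) and 17 did not pass. Over all 34 members, 10 rose and 3 fell past an edgeR adjusted p of 0.05 (Benjamini-Hochberg), beside 13.5% of all 15798 genes tested that rose and 15.6% that fell, or 29.0% in either direction. The median log2 fold change of the 34 members was 0.15, against -0.000184 for all genes tested. Without the correction the largest change was a 1.43-fold rise, of Taldo1. With it, Pdk4 (0.65 on the log2 scale) and Slc2a3 (0.62) changed more than Taldo1 (0.31).

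The number of members called depended on single libraries. It was 17 higher and 4 lower without KO library 1 (41.6% of all genes called), where 13 glycolysis genes were higher and 4 lower, 3 higher and 0 lower without KO library 3 (10.2%), and 5 higher and 0 lower without WT library 3 or without WT library 4. Without KO library 2, 8 members were higher and 0 lower. Without WT library 1 it was 7 higher and 0 lower, and without WT library 2 it was 10 higher and 1 lower. KO library 1 stood apart from the other KO libraries in the glycolytic enzymes: 4 of 15 lay above the highest WT library there, against 7 in KO library 2 and 13 in KO library 3. Over all genes tested, 29.0%, 34.7% and 35.7% lay above the highest WT library in KO libraries 1 to 3. Level relative to the mean of all 7 libraries also varied with transcript length, to an unequal degree. This relative level changed on the log2 scale, per doubling of length, by 0.000503, -0.177 and -0.135 in KO libraries 1 to 3. In the WT libraries it changed by 0.0621 to 0.0863. Values after a correction for each library's trend with length and GC content are therefore given as corrected values, and with it 9 members were higher and 2 lower, beside 11.9% of genes higher and 11.0% lower, or 23.0% in either direction.

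**Figure D1:**
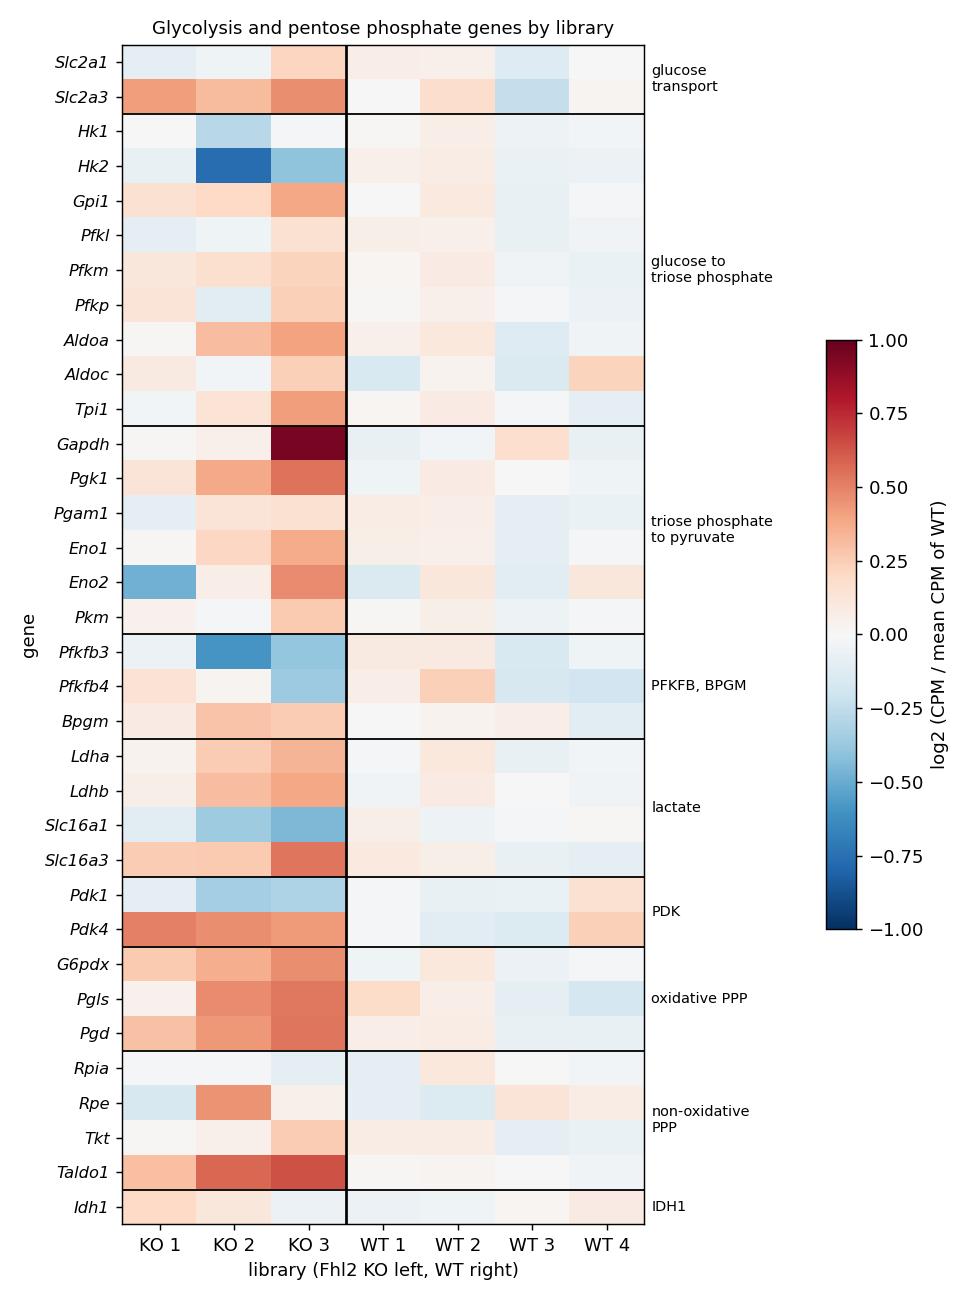
Log2 ratio of each gene's CPM to its mean in the WT libraries, with 1 row per gene in order of role and 1 column per library (Fhl2 KO left, WT right). Pdk4, G6pdx, Pgd and Taldo1 are red in all 3 KO columns, while Aldoa, Tpi1, Eno1 and Ldha are red in KO libraries 2 and 3 and near white in KO library 1.

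Counts divided by transcript length, as CPM per kilobase, allow levels of different genes to be set side by side. In KO cells, Pkm, the pyruvate kinase gene, had the highest level of the members at 792.5 ± 80.95 CPM per kilobase, against 739 ± 23.0 in WT cells (SD, n = 3 KO and 4 WT). It was followed by the lactate dehydrogenase gene Ldha at 754 ± 80.1 in KO and 649 ± 34.65 in WT, and by the enolase gene Eno1 at 687 ± 85.8 in KO and 596 ± 29.7 in WT, so that these neighbours overlapped in KO. The oxidative branch genes were lower, with G6pdx at 114.5 ± 8.08 CPM per kilobase in KO and 88.9 ± 4.70 in WT and Pgd at 118 ± 9.98 in KO and 87.55 ± 5.28 in WT. These levels are close to that of Gpi1, which acts on the same substrate as G6pdx, at 124 ± 11.2 in KO and 104 ± 5.31 in WT. The lowest were Eno2, the neuronal enolase gene, at 0.690 ± 0.221 in KO and 0.656 ± 0.0624 in WT, and Pfkfb4 at 1.11 ± 0.194 in KO and 1.15 ± 0.164 in WT (SD, n = 3 KO and 4 WT).

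Of the genes of glucose uptake, 1 of 2 rose. Slc2a1 encodes GLUT1, the widespread basal glucose transporter, and had 44.9, 46.6 and 55.8 CPM in KO libraries 1 to 3, against 50.5, 49.8, 43.9 and 48.1 CPM in WT libraries 1 to 4. The groups overlapped, and the log2 fold change was 0.03 (95% interval -0.18 to 0.24, edgeR adjusted p = 0.85). Slc2a3, the gene of the high-affinity transporter GLUT3, had 7.95, 7.44 and 8.23 CPM in KO, against 5.99, 6.73, 5.05 and 6.09 CPM in WT. Each KO library was above every WT library, and the gene rose by 0.40 (SE 0.136, edgeR adjusted p = 0.0353, corrected 0.62). Leaving out KO library 3 or WT library 1, 3 or 4 removed this call (adjusted p then 0.0645 to 0.134 with edgeR, within 0.00307 to 0.134 for all its alternatives).

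Of 9 genes that take glucose to triose phosphates, 1 rose, 1 fell and 7 did not pass. Hk2, the inducible hexokinase that starts glycolysis, had 145, 90.0 and 116 CPM in KO libraries 1 to 3, against 158, 160.4, 146 and 146 CPM in WT. It fell by 0.39 (SE 0.126, edgeR adjusted p = 0.0320, corrected -0.26). KO library 1 lay just under the lowest WT library, and KO library 2 lay farthest below. The call was lost when any single library other than KO library 1 was left out (edgeR adjusted p of 0.0563 to 0.145, and 0.000171 to 0.145 over all alternatives). Hk1, the constitutive hexokinase, stood at 174 ± 18.4 CPM in KO and 185 ± 6.85 CPM in WT and did not pass (-0.09, edgeR adjusted p = 0.483). Per kilobase, Hk2 made up 41.3%, 34.7% and 36.3% of the sum of both hexokinases in KO libraries 1 to 3 and 42.1% to 43.2% in the WT libraries.

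Gpi1, the isomerase that keeps glucose 6-phosphate in glycolysis, had 334, 345 and 394 CPM in KO, against 299, 322, 285 and 297 CPM in WT. The groups did not overlap, as for 34.2% of all genes tested (16.4% with KO above and 17.7% with KO below, where 10 of the 34 members had KO above and 3 KO below), and Gpi1 rose by 0.25 (SE 0.09005, edgeR adjusted p = 0.0459, corrected 0.27). Leaving out KO library 2 or 3 or WT library 1, 3 or 4 removed this call (adjusted p then 0.053 to 0.238 with edgeR, within 0.00278 to 0.238 for all alternatives). The phosphofructokinase genes, of the committed step, did not pass: the log2 fold changes were 0.01 for Pfkl, 0.17 for Pfkm and 0.09 for Pfkp (edgeR adjusted p = 0.949, 0.1545 and 0.497), and Pfkp passed after the correction (0.25, edgeR adjusted p = 0.0298, range 0.0298 to 0.942). Of the summed level of these isoforms per kilobase, Pfkm made up 36.9% to 40.1% in KO and 36.0% to 36.8% in WT, and Pfkp, the least abundant, 24.8% to 28.5% in KO and 26.6% to 27.55% in WT. Aldoa and Tpi1, the main aldolase and the triose phosphate isomerase, were at 0.25 and 0.19 (edgeR adjusted p = 0.0738 and 0.178) and at 0.03 and -0.03 after the correction. In both, KO library 1 lay within the WT range and KO libraries 2 and 3 above it. Aldoc, the brain-type aldolase, made up 0.550% to 0.728% of the aldolase level in KO and 0.599% to 0.825% in WT.

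The stretch from triose phosphate to pyruvate is where glycolysis yields ATP, and 1 of its 6 genes rose. Pgk1, the phosphoglycerate kinase of the first ATP-yielding step, had 416, 495 and 556 CPM in KO, against 370.1, 404, 382 and 371 CPM in WT. All KO libraries were above all WT libraries, with a rise (log2 fold change 0.36, SE 0.0986, edgeR adjusted p = 0.0132, corrected 0.31). Leaving out KO library 3 removed that call (edgeR adjusted p = 0.108, range 5.12e-05 to 0.108). Pkm, Eno1, Eno2 and Pgam1 did not pass, with log2 fold changes of 0.10, 0.20, 0.08 and 0.07 (edgeR adjusted p = 0.439, 0.121, 0.855 and 0.618) and corrected values of -0.04 to 0.07. In KO library 3 all 6 genes of this stretch lay above the highest WT library, against 3 in KO library 2 and, in KO library 1, only Pgk1, with 2 others below the lowest WT library. Gapdh is counted here by its deposited row, which is limited as described next.

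Gapdh, glyceraldehyde 3-phosphate dehydrogenase and a frequent reference gene, cannot be read from its own row. It held only 502, 618 and 1113 counts in KO libraries 1 to 3 and 466, 624, 665 and 526 counts in WT libraries 1 to 4, or 12.8, 13.2 and 24.4 CPM in KO, against 12.0, 12.4, 14.2 and 12.0 CPM in WT. Rows of 77 near-identical copies, mostly annotated pseudogenes, held 95.9% of the counts of Gapdh and these copies together. For every other member the copies that were counted held at most 9.22% of the joint counts (Pgam1). Copies on chromosome 18 and genes overlapping a member were not counted. The counted copies were thus 77 of 78 found for Gapdh, 2 of 3 for Eno1 and 3 of 4 for Pgk1, and their shares may be higher. With the copies summed, a setting chosen after this was seen, Gapdh had 346, 407 and 437 CPM in KO, against 304, 334, 313 and 323 CPM in WT. It then rose by 0.32 (SE 0.0936, edgeR adjusted p = 0.0187), whereas the row as deposited was at 0.41 (SE 0.206, edgeR adjusted p = 0.166). Over the 18 alternatives for Gapdh, which include this sum, the edgeR or DESeq2 adjusted p was 0.00933 to 0.884. The sum itself was not varied further. With the copies summed, the groups did not overlap. When copies were summed for each member, 7 glycolysis members were higher, against 6 with the rows as deposited. Counts and medians over members elsewhere include the deposited Gapdh row unless it is said to be left out.

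Of the regulators of phosphofructokinase and the bisphosphoglycerate bypass, 1 of 3 genes fell. Pfkfb3, a kinase that makes the activator fructose 2,6-bisphosphate, had 38.4, 26.5 and 30.5 CPM in KO, against 42.6, 42.5, 36.0 and 38.8 CPM in WT, with KO library 1 inside the WT range. It fell by 0.33 (SE 0.118, edgeR adjusted p = 0.04375, corrected -0.41), and the call was lost without any single library other than KO library 1 (edgeR adjusted p of 0.0502 to 0.219, and 0.00102 to 0.219 over all alternatives). Pfkfb4 (-0.05, edgeR adjusted p = 0.862) and the mutase gene Bpgm (0.21, edgeR adjusted p = 0.103) did not pass.

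Of the genes of lactate, 2 rose, 1 fell and 1 did not pass. Ldha, whose subunit favours lactate formation, had 1057, 1228 and 1305 CPM in KO, against 1024, 1108, 979 and 1011 CPM in WT. KO library 1 overlapped the WT range, and the change of 0.22 did not pass (95% interval 0.02 to 0.41, edgeR adjusted p = 0.093, corrected 0.10). Ldhb, whose subunit favours pyruvate, had 216, 258 and 272 CPM in KO, against 202, 219.9, 207 and 203 CPM in WT, and rose by 0.26 (SE 0.0931, edgeR adjusted p = 0.0463), with KO library 1 inside the WT range. The call of Ldhb was lost after the correction (0.07, edgeR adjusted p = 0.441), and without KO library 2 or 3 or WT library 1, 3 or 4 (0.0974 to 0.229, and 0.000436 to 0.466 over all alternatives). The share of Ldhb in the summed lactate dehydrogenase level per kilobase was 19.95% to 20.3% in KO and 19.4% to 20.5% in WT, so the groups overlapped in the balance of the isoforms.

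The lactate carriers went opposite ways. Slc16a3 encodes MCT4, known as the exporter of strongly glycolytic cells, and had 23.2, 23.3 and 28.2 CPM in KO, against 20.8, 20.3, 18.5 and 18.2 CPM in WT, a rise of 0.36 (SE 0.105, edgeR adjusted p = 0.0174, corrected 0.25). Slc16a1 encodes the more widespread carrier MCT1 and had 132, 112 and 105 CPM in KO, against 149, 138, 141 and 144 CPM in WT, a fall of 0.30 (SE 0.0943, edgeR adjusted p = 0.0249). In neither gene did the groups overlap. After the correction Slc16a1, a gene of long transcripts (4426 bases), was at -0.05 and lost its call (edgeR adjusted p = 0.642, range 0.000526 to 0.642), while Slc16a3 kept it (0.0333). Slc16a1 also lost its call without KO library 2 or 3 or WT library 1, 3 or 4 (0.052 to 0.147), and Slc16a3 without KO library 3 or WT library 3 or 4 (0.0523 to 0.129, and 0.00273 to 0.129 over all alternatives).

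Pdk4, a kinase that switches off pyruvate dehydrogenase, showed the largest rise outside the pentose phosphate pathway among the members with a call. It had 33.96, 33.035 and 32.1 CPM in KO, against 23.6, 22.1, 21.7 and 28.2 CPM in WT. The KO libraries lay close together and above all WT libraries, and the gene rose 1.38-fold (log2 fold change 0.47, SE 0.104, edgeR adjusted p = 0.00441, corrected 0.65). The call held under all 18 alternatives (adjusted p of 0.00016 to 0.0233). Pdk1, a related kinase known as a hypoxia target, had 31.2, 26.4 and 27.0 CPM in KO, against 33.05, 31.7, 31.9 and 37.2 CPM in WT. The groups did not overlap, but its change of -0.25 did not pass (edgeR adjusted p = 0.074), and it was at 0.08 after the correction, so its sign changed with the correction.

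**Figure D2:**
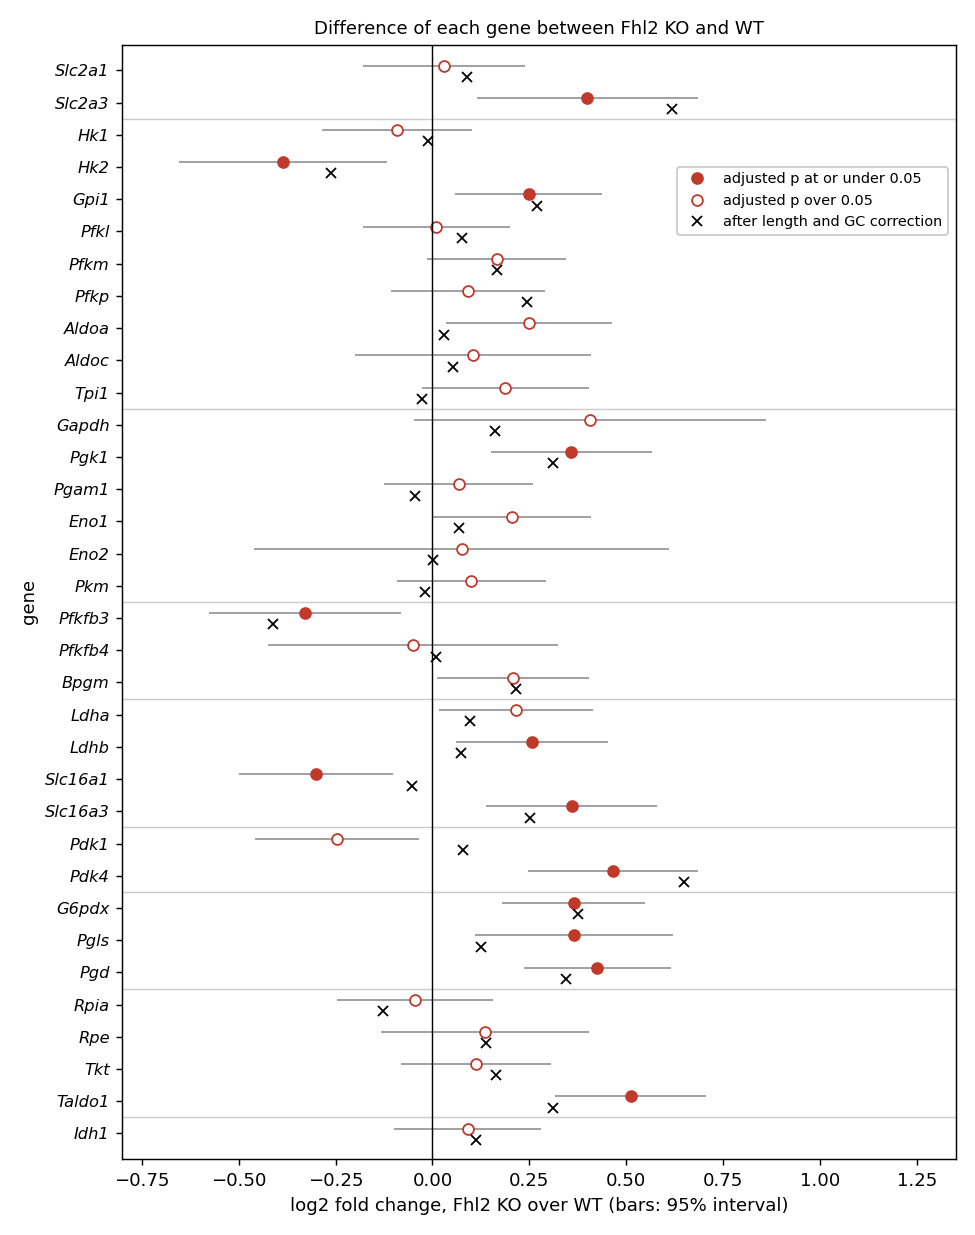
Log2 fold change of each gene, Fhl2 KO over WT, with its 95% interval (circles, filled where the edgeR adjusted p is at or under 0.05), and the value after the correction for transcript length and GC content (crosses), in order of role from top to bottom. Pdk4, G6pdx, Pgd and Taldo1 lie right of 0 by both measures, and the cross of Slc16a1 lies near 0.

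The promoters of the 3 pentose phosphate genes with the firmest calls are shown because these genes moved together, and the first enzyme of the branch is a known target of the antioxidant factor NRF2. Each window runs from 250 bases before to 50 bases after the RefSeq start (build GRCm38.p6), 5′ to 3′ on the gene's strand. Capitals mark the antioxidant response core TGACNNNGC and the hypoxia response cores ACGTG and GCGTG, searched on both strands. G6pdx is at chrX:74428831-74429130 (minus strand), Pgd at chr4:149166656-149166955 (minus strand) and Taldo1 at chr7:141391910-141392209 (plus strand).
G6pdx: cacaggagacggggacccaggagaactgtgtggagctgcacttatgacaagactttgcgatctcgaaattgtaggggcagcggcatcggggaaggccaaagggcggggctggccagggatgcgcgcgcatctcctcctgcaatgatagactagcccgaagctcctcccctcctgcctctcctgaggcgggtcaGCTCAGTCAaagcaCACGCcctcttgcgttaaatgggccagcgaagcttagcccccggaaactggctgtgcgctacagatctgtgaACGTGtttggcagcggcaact
Pgd: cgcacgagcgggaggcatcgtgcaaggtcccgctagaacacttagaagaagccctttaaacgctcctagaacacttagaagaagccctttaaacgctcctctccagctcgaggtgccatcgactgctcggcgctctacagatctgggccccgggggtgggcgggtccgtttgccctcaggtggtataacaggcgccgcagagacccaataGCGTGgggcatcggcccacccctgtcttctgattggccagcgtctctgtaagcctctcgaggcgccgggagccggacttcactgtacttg
Taldo1: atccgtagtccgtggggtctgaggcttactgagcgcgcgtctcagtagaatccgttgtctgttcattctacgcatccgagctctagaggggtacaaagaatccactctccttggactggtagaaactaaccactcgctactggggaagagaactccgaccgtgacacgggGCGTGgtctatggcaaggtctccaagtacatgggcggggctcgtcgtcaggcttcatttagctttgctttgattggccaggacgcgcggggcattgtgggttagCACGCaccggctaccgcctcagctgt
The G6pdx window held the antioxidant core, which stood as GCTCAGTCA on the listed strand, and no match to it was found in the Pgd and Taldo1 windows. Of the 33 members with a RefSeq window (Slc2a3 had no entry), G6pdx and Slc16a1 held this core, against 12.4% of all 32851 windows. A hypoxia core was found in 25 of the 33, against 43.8% of all windows, and the GC box GGGCGG also in 25 of 33, against 35.7%. The hypoxia core overlaps the E-box CACGTG, which was found in 3 of the 33 and in 7.2% of all windows. Matches describe letters in these windows only.

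All 3 members of the oxidative branch rose in KO. G6pdx (X chromosome, 74409483 to 74429194, mm10) encodes glucose-6-phosphate dehydrogenase, the rate-limiting enzyme and first source of NADPH. It had 282, 304 and 325 CPM in KO libraries 1 to 3, against 228, 254, 226 and 234 CPM in WT libraries 1 to 4. Each KO library exceeded every WT library, and the gene rose 1.29-fold (log2 fold change 0.37, SE 0.0877, edgeR adjusted p = 0.00653). Its corrected value was 0.38, and of the 18 alternatives only leaving out KO library 3 removed the call (edgeR adjusted p = 0.0505, range 0.000132 to 0.0505).

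Pgd (chromosome 4, 149149991 to 149166771), the 6-phosphogluconate dehydrogenase that makes the second NADPH, had 238, 262 and 282 CPM in KO, against 204, 205, 184 and 184 CPM in WT. The groups were apart, with a 1.34-fold rise (log2 fold change 0.43, SE 0.0904, edgeR adjusted p = 0.00323, corrected 0.34), and the call held under all 18 alternatives (adjusted p of 4.69e-05 to 0.0325). Pgls, the lactonase between these enzymes, had 31.2, 42.2 and 43.7 CPM in KO, against 34.5, 31.7, 28.3 and 26.8 CPM in WT. KO library 1 lay inside the WT range. Pgls rose by 0.37 (SE 0.121, edgeR adjusted p = 0.0318), but its call was lost after the correction (0.13, edgeR adjusted p = 0.307) and without KO library 2 or 3 or WT library 3 or 4 (0.0809 to 0.194, and 0.000411 to 0.351 over all alternatives).

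In the non-oxidative branch 1 of 4 genes rose. Taldo1 (chromosome 7, 141392199 to 141402968) encodes transaldolase and had 198, 241 and 251.02 CPM in KO, against 163, 164, 161 and 158 CPM in WT. It rose 1.43-fold (log2 fold change 0.51, SE 0.09275, edgeR adjusted p = 0.00118), the largest uncorrected rise of the 34 members and the only uncorrected change of at least 0.5, where 4.18% of all genes tested rose and 7.09% fell by at least that much. The corrected rise was 0.31, under 0.5 and under the corrected values of Pdk4 and Slc2a3, and the call held under all 18 alternatives (adjusted p of 2.64e-06 to 0.0155). Tkt, the transketolase that works with it, had 368, 379 and 436 CPM in KO, against 384, 384, 343 and 349 CPM in WT. KO libraries 1 and 2 lay inside the WT range, and Tkt did not pass (0.11, 95% interval -0.08 to 0.30, edgeR adjusted p = 0.387, corrected 0.17). Rpia (-0.045, 95% interval -0.25 to 0.16) and Rpe (0.14, 95% interval -0.13 to 0.40), the isomerase and epimerase of pentose phosphates, did not pass either (edgeR adjusted p = 0.765 and 0.45).

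Glycolysis and the NADPH-making branch were then set against each other within each library, using levels per kilobase so that genes could be added. Gapdh was left out for the reason above, which leaves 14 glycolytic enzyme genes. The oxidative branch summed to 246, 276 and 294 CPM per kilobase in KO libraries 1 to 3, against 213, 220.4, 197 and 199 in WT libraries 1 to 4, without overlap. The glycolytic enzymes summed to 2703, 2933 and 3356 in KO, against 2710.5, 2792, 2538 and 2597 in WT, and KO library 1 lay within the WT range. The oxidative sum was thus 9.085%, 9.41% and 8.77% of the glycolytic sum in KO and 7.87%, 7.895%, 7.77% and 7.66% in WT. The KO libraries were the 3 highest, and KO library 1, unremarkable in the glycolytic sum, was among them. On the log2 scale the ratio was 0.22 higher in KO, 0.28 after the correction and 0.195 to 0.246 with any single library left out, beside a standard deviation of 0.0357 within groups. No test was made of this ratio, since the members were chosen with results of these libraries known.

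A single pair of enzymes shares the substrate at the fork, G6pdx into the pentose phosphate pathway and Gpi1 into glycolysis. Per kilobase, G6pdx was at 92.0%, 95.8% and 89.6% of Gpi1 in KO, against 83.0%, 85.7%, 86.2% and 85.9% in WT. All KO libraries were above all WT libraries, with a difference of 7.26 percentage points in the means. Like the ratio of the branches, this ratio is given only as a description of these libraries, and no call was made from it. The sum of the non-oxidative branch was 287, 327 and 349 CPM per kilobase in KO, against 264, 266, 252 and 250.7 in WT, of which Taldo1 gave 177.5 ± 21.6 in KO and 124.5 ± 2.17 in WT (SD, n = 3 KO and 4 WT). Over the whole lists, the median log2 fold change was 0.37 for the 7 pentose phosphate genes (4 higher, 3 not past the test) and 0.11 for the 15 glycolytic enzyme genes (2 higher, 1 lower, 12 not past the test). Beside the uncorrected medians, the standard deviation within groups was 0.153 for the pentose phosphate genes and 0.0931 for the glycolytic enzymes. After the correction the medians were 0.17 and 0.05.

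**Figure D3:**
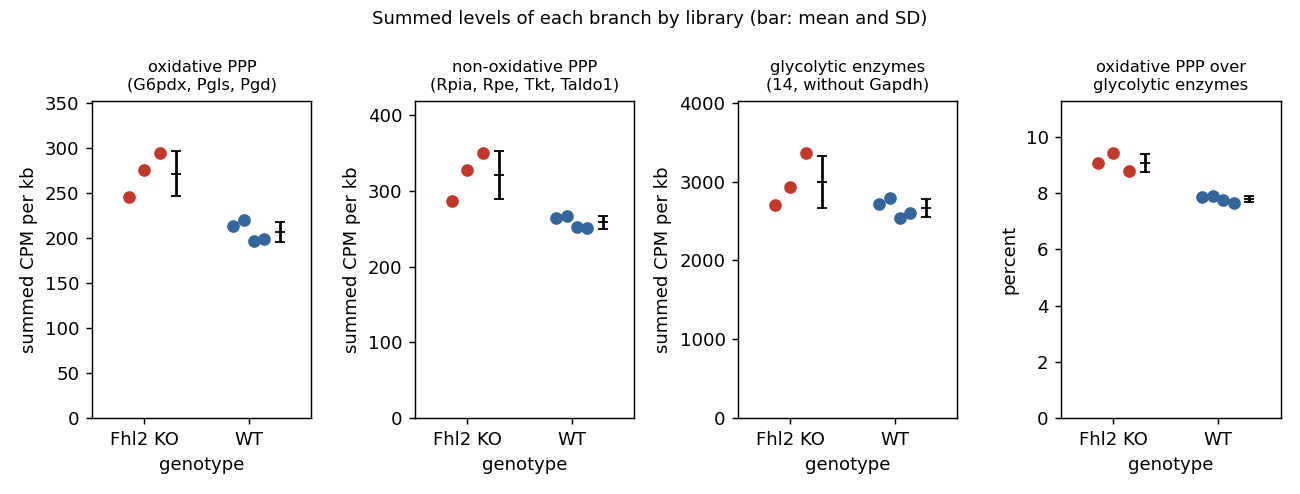
Summed CPM per kilobase of the oxidative branch, the non-oxidative branch and the glycolytic enzymes, and the oxidative sum as a percentage of the glycolytic sum, with 1 point per library (Fhl2 KO left, WT right), and a bar for mean and SD. The percentage is 8.77 to 9.41 in KO and 7.66 to 7.895 in WT, while the glycolytic sums overlap.

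The members ran from 977.5 to 5185 bases of transcript. With all genes in 10 groups of equal size by length, the median log2 fold change went down from each group to the next longer one, and was 0.28 for the shortest group and -0.37 for the longest. The short genes Pgls (977.5 bases), Tpi1 (1204), Taldo1 (1296), Ldhb (1304) and Aldoa (1511) had smaller values after the correction. G6pdx (2652 bases), Gpi1 (2884), Pdk4 (3484) and Slc2a3 (3959) kept or increased theirs. The libraries' length trends were not tested as a cause of any member's change.

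**Figure D4:**
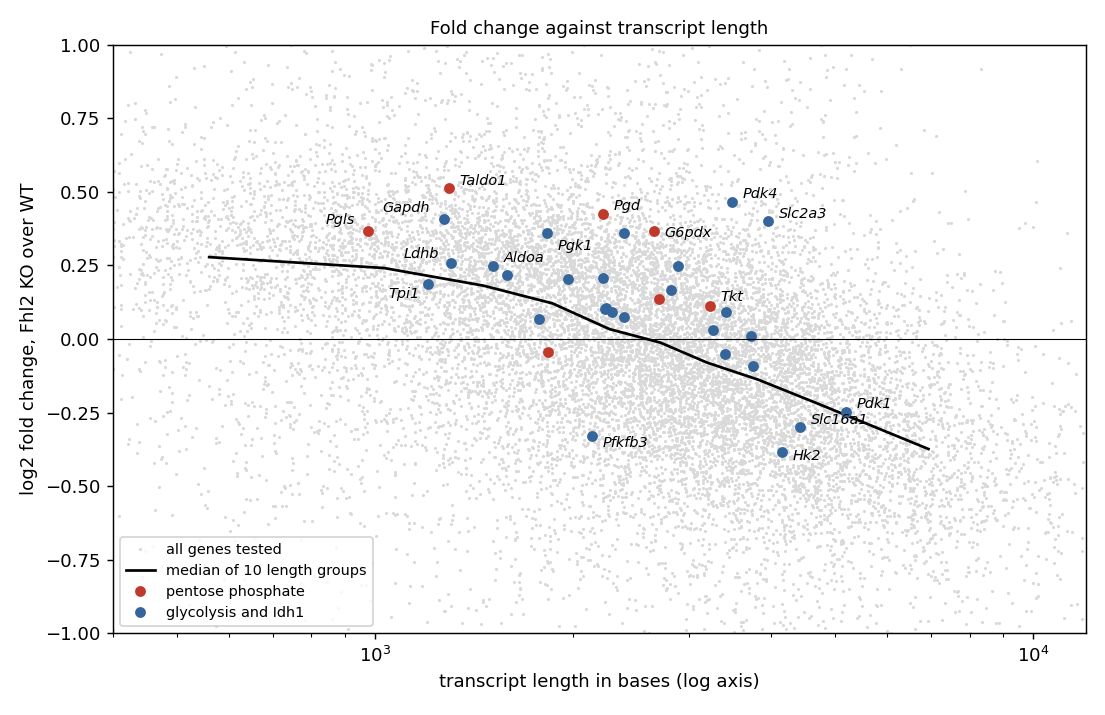
Log2 fold change, Fhl2 KO over WT, against transcript length (log axis) for all genes tested (grey), the pentose phosphate genes (red) and the glycolysis genes with Idh1 (blue), and the medians of 10 groups of genes by length (black line). Genes beyond a change of 1 in either direction are outside the axis. The line runs from 0.28 at the short end to -0.37 at the long end, and G6pdx, Pgd, Taldo1, Pdk4 and Slc2a3 lie above it.

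Among other makers of NADPH, Me1 was higher in KO, and Nnt and Aldh1l2 were lower. Idh1 had 445, 419 and 372 CPM in KO, against 371, 374, 392.2 and 409 CPM in WT. The groups overlapped and it did not pass (0.09, 95% interval -0.10 to 0.28, edgeR adjusted p = 0.476). Of 15 further genes of NADPH making and folate metabolism, 2 rose, 5 fell and 8 did not pass (median -0.20, corrected -0.17). Over all genes tested, 13.5% rose and 15.6% fell. After the correction 3 of the 15 were higher and 7 lower, beside 11.9% of all genes higher and 11.0% lower. The risers were malic enzymes, which draw NADPH or NADH from malate. Me1, the cytosolic NADPH-making form, had 789, 801 and 689 CPM in KO, against 386, 389, 437 and 436 CPM in WT (log2 fold change 0.88, SE 0.0922, edgeR adjusted p = 6.21e-06). Me2, a mitochondrial form that makes NADH, had 399.8, 365 and 358 CPM in KO, against 187, 187, 184 and 199 CPM in WT (0.98, SE 0.0846, edgeR adjusted p = 7.9e-07). Both kept their calls under all 18 alternatives, and neither overlapped between groups.

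Nnt, the transhydrogenase that makes NADPH in mitochondria, fell. It had 30.8, 33.9 and 31.6 CPM in KO, against 57.3, 61.2, 59.7 and 59.2 CPM in WT (-0.89, SE 0.0893, edgeR adjusted p = 4.38e-06, corrected -0.75). C57BL/6J mice are known to carry a deletion within Nnt. Both groups carry that strain label, and the exons behind these reads were not analysed here. Aldh1l2, a mitochondrial folate enzyme that makes NADPH, stood at 20.7 ± 5.84 CPM in KO and 45.8 ± 1.86 CPM in WT (SD, n = 3 KO and 4 WT) and fell by 1.15 (SE 0.156, edgeR adjusted p = 0.000331). Both calls held under all 18 alternatives.

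**Figure D5:**
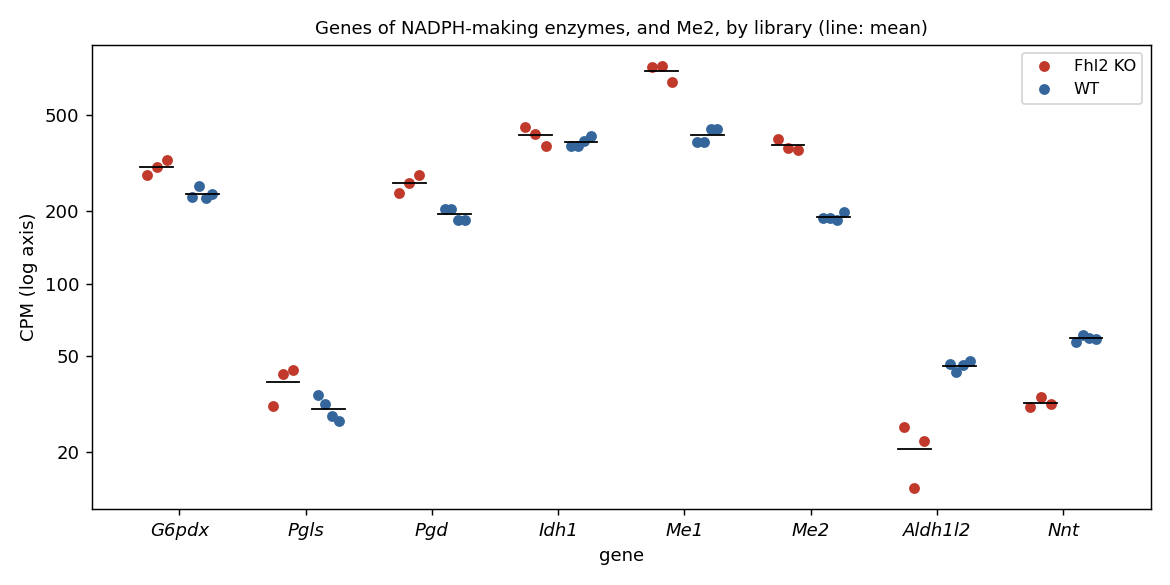
CPM (log axis) of genes of NADPH-making enzymes and of Me2 in each library (points, Fhl2 KO left and WT right in each pair, line at the mean). Me1 and Me2 stand at 689 to 801 and 358 to 399.8 CPM in KO, above all WT libraries, and Nnt and Aldh1l2 stand below all WT libraries.

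The other routes around glycolysis changed in part. Of 10 genes of mitochondrial pyruvate entry and pyruvate dehydrogenase, 3 fell and 7 did not pass. Those that fell were Pdha1, the catalytic subunit (-0.28), and Pdp2 and Pdpr, of the phosphatase that reactivates the complex (-0.34 and -0.57). After the correction none of the 3 passed with edgeR (adjusted p = 0.0923, 0.937 and 0.12, within 2.92e-05 to 0.937 over their alternatives), and each lost its call when 1 of several libraries was left out. The pyruvate carrier gene Mpc1 did not pass (0.32, edgeR adjusted p = 0.0709). Of 20 genes of the citric acid cycle and malate shuttle, 7 rose and 2 fell (median 0.21, corrected 0.13), against 5 higher and 2 lower after the correction. Idh3a, the catalytic subunit of NAD-linked isocitrate dehydrogenase, fell by 0.43 (SE 0.0891, edgeR adjusted p = 0.00294), while its partner subunit Idh3g rose by 0.33 (corrected 0.17, edgeR adjusted p = 0.0792). Suclg2 fell by 0.39 (corrected -0.28), and Sdhb rose by 0.35 but lost its call after the correction (0.10, edgeR adjusted p = 0.274). Leaving out KO library 3 removed the calls of Idh3g, Suclg2 and Sdhb (edgeR adjusted p of 0.101, 0.0605 and 0.0958; ranges 0.000176 to 0.161, 9.65e-05 to 0.0605 and 6.9e-05 to 0.274), and Idh3g also lost its call without WT library 3 (0.0518).

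Of 33 further isoforms and neighbours of the 34 genes, 22 were tested, 3 rose and 1 fell. Rbks, the ribokinase gene, rose by 0.76 (SE 0.182, edgeR adjusted p = 0.00636). Pdk2, another pyruvate dehydrogenase kinase, rose by 0.37 (SE 0.101, edgeR adjusted p = 0.0136), the D-lactate dehydrogenase gene Ldhd by 0.58 (0.0433), and Prps2, which makes phosphoribosyl pyrophosphate from ribose phosphate, fell by 0.27 (0.0241). Leaving out KO library 3 removed each of these calls (edgeR adjusted p of 0.0501 to 0.178), and those of Pdk2, Ldhd and Prps2 were also lost without other libraries. After the correction Rbks and Pdk2 kept their calls (0.60 and 0.25), while Ldhd (0.47, edgeR adjusted p = 0.0966, range 0.0276 to 0.178) and Prps2 (-0.10, edgeR adjusted p = 0.276, range 0.0112 to 0.276) did not. Of 14 NADPH users, 4 rose and 3 fell, against 4 higher and 1 lower after the correction. Fdxr, which passes electrons from NADPH to mitochondrial steroid P450 enzymes, rose by 0.39 (SE 0.0883, edgeR adjusted p = 0.00462), and the quinone and biliverdin reductases Nqo1 (1.30, at 2.72 ± 0.170 CPM in KO and 1.10 ± 0.218 CPM in WT) and Blvrb (0.83) rose as well, whereas Sqle, of sterol synthesis, fell by 0.51.

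Of 11 tested genes of gluconeogenesis and glycogen, 2 rose and 9 did not pass. They were the glucose-6-phosphatase subunit G6pc3 (0.49, SE 0.102, edgeR adjusted p = 0.00311) and glycogenin Gyg (0.34). Gyg did not keep its call without KO library 3 or WT library 1, 3 or 4 (adjusted p then 0.0512 to 0.145 with edgeR, within 5.89e-05 to 0.145 for all alternatives). Fbp1 and Pygb did not pass (0.95 and -0.25, edgeR adjusted p = 0.182 and 0.059). Of 9 genes of the hexosamine and polyol routes, Gfpt1 and Gfpt2, which draw fructose 6-phosphate into hexosamines, fell by 0.36 and 0.56 (edgeR adjusted p = 0.00714 and 0.00243), and the fructokinase Khk rose by 0.48 (0.00604). Leaving out KO library 3 removed the calls of Gfpt1 and Khk (0.051 and 0.0657, ranges 0.000816 to 0.051 and 2.4e-05 to 0.0657), and Sord did not pass (0.24). After the correction 2 genes of these routes were higher and 2 lower.

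Of 22 hypoxia-response genes outside glycolysis, 4 rose, 3 fell and 15 did not pass (median -0.03), beside 29.0% of all genes tested that were called. After the correction 7 were higher and 5 lower. Adm, the adrenomedullin gene, rose by 0.81 (SE 0.118, edgeR adjusted p = 0.000195) and the mitophagy receptor gene Bnip3 by 0.52 (0.0036), whereas the carbonic anhydrase Car12 fell by 0.68 (0.00362) and the collagen prolyl hydroxylase P4ha1 by 0.35 (0.0116). P4ha1 did not keep its call without KO library 2 or 3 (edgeR adjusted p = 0.0561 and 0.0693, range 0.000167 to 0.0693). Of 15 regulators of glucose use, 3 fell and 12 did not pass, while 3 were higher and 2 lower after the correction. Those that fell were Irs1, an adaptor of the insulin and IGF1 receptors (-0.59, corrected -0.14 and no longer past the test), Mlxip, a glucose-sensing transcription factor (-0.54), and the insulin receptor gene Insr (-0.28). Insr turned to a rise after the correction (0.22, edgeR adjusted p = 0.0263, range 0.00138 to 0.204), and its call, like that of Mlxip, was lost without 1 of several libraries. Myc did not pass (-0.26, edgeR adjusted p = 0.0836), but passed as lower after the correction (-0.37, edgeR adjusted p = 0.0345, range 0.000932 to 0.388).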

How the data were processed

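Read counts per gene symbol were deposited as whole-number counts, 1 column per library, not normalized by the authors. The submitters' processing notes list HISAT2 2.2.1 and featureCounts 1.6.4 among the tools, and build mm10. How strand and reads shared between copies were handled is not given in the sources used here, so reads of near-identical and overlapping genes (Pfkp and Pitrm1, G6pdx and Ikbkg) may not be separated. Per the labels' protocols, RNA was extracted with TRIzol for a stranded mRNA library kit.

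Genotype was tested on these counts with edgeR 4.0.16 under R 4.3.3 (filterByExpr with a minimum count of 10, TMM, robust glmQLFit and glmQLFTest, no covariate) over 15798 genes with Benjamini-Hochberg adjustment. SE values derive from the F statistic. Intervals of 95% cover the spread between libraries, and the floor of 3 counts covers counting error only. Lengths, GC content and gene positions came from GENCODE M21 (mm10), available for 98.7% of the genes tested. The length and GC correction entered each library's natural-spline trend (4 degrees of freedom) as an offset. Near-identical copies were found with blastn 2.17.0 (95% identity over 200 bases). DESeq2 1.42.0 and the other alternatives are given in the closing section. The fit was checked on simulated counts of the Fhl2 KO against WT comparison (15400 genes). Of 100 genes changed by 0.5 and 100 changed by 1 on the log2 scale, 59% and 91% were recovered. In the data 29.0% of genes were called, far more than were changed in the simulation. The simulated counts also held no length trend. The check therefore does not cover that trend or changes smaller than 0.5.

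The members and lists were chosen with earlier results of these data known. Genes were named by rule: all members, and up to 4 genes with the smallest p from each further list. H6pd was added outside this rule. Values of every library were planned for 10 members and for called changes of at least 0.5, and are given for other members with a call as well.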

Additional observations from a re-analysis of the deposited data

Results flagged for a closer look

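The level of G6pdx as a percentage of Gpi1 stood out because WT library 1 lay far from the other WT libraries, at 83.0% against 85.7%, 86.2% and 85.9%, while the KO libraries were at 92.0%, 95.8% and 89.6%. Its gap to the nearest library was 0.833 of the range of the 4 WT libraries, just past the critical value of Dixon's test. This was 1 of 40 sets of WT values examined, and chance flags about 1 in 20.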

How the results depend on the processing

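Of the 34 members' results under 18 alternatives, 527 kept their side of the threshold, 68 lost a call, 13 gained a call and 0 turned a called value round. Among the 18, the fit of the 6 libraries without the block is the same as that without WT library 4. Calls lost there are counted in both. Pdk4, Pgd and Taldo1 kept their calls in all 18. With 1 library left out, the count of genes called ran from 1657 to 6740 (4588 with all), members higher from 3 to 17, members lower from 0 to 4, glycolysis members higher from 1 to 13 and pentose phosphate members higher from 2 to 4. The median log2 fold change then ran from 0.033 to 0.21 for glycolytic enzymes and from 0.276 to 0.436 for pentose phosphate genes, and the log2 ratio of the branches from 0.195 to 0.246. The genes called were 2994 without WT library 3, 2960 without WT library 4 and 1657 without KO library 3. With the replicate block (the 6 libraries that share a number), 4 members were higher, 1 of them a glycolysis gene, and 3301 genes were called. The same 6 libraries without the block gave 2960 genes, 5 members higher, 2 of them glycolysis genes, and 0 lower, so the drop to 5 came with leaving out WT library 4. Same-numbered libraries did not deviate together (r of -0.0324 to 0.0326), so the numbers were not taken to pair them, and not every library correlated best with its own number. With a correction for length alone, 1 member was lower, and the pentose phosphate median was 0.21, against 0.17 with length and GC and 0.37 without. The log2 ratio of the NADPH-making branch to the glycolytic enzymes was 0.28 with length and GC, against 0.22 without. Of the named genes outside the members, Insr turned to 0.22 with length and GC and to 0.18 with length alone, and Pdp2 to 0.0125 with length and GC, each from a call in the other direction; the cause was not tested. Library totals alone shifted the median of all genes by 0.04 and gave 2630 genes higher and 2129 lower, against 2128 and 2460 with TMM. Without the low-count filter, which adds genes to the adjustment, 8 members were higher. Depth limits the lowest members most: Eno2, Pfkfb4, Aldoc and Slc2a3 held 502, 1194, 1845 and 2108 counts over all 7 libraries.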
